A study of Homo sapiens with 12 samples.

Results

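Lysosomal genes were described across the 6 conditions of an RNA-seq experiment on rituximab (R) and ofatumumab (OF), a pair of monoclonal antibodies that bind different epitopes of CD20 on B cells. The group holds 46 genes of the 58884 in the count table, taken by their Ensembl identifiers from a list of cathepsins and other lysosomal hydrolases, lysosomal membrane proteins, subunits of the proton pump, and the regulators TFEB and TFE3. The cells were U2932 and TMD8, established lines of diffuse large B-cell lymphoma (DLBCL) without an engineered genotype, each exposed for 4 h to R, to OF or to human IgG1 as the isotype control, all at 20 µg/mL. Each line had been divided and kept as 2 separate cultures for a week, so each of the 6 conditions had 2 replicates, and each result stands for 1 line rather than for a type of lymphoma. The comparison of R with OF addressed whether antibodies to different epitopes differ in the transcription they induce.

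The lysosome is the acidic compartment in which cells break down proteins, glycans and lipids that arrive by endocytosis and autophagy. Its acid hydrolases need the low pH made by the vacuolar proton pump, and glycosylated membrane proteins such as LAMP1 and LAMP2 line its inner face. TFEB and TFE3 are related transcription factors that bind a short E-box motif in the promoters of many lysosomal genes, and they are controlled largely by movement between the cytoplasm and the nucleus, which RNA levels do not show.

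RefSeq promoter windows (GRCh38.p14, 250 bases before to 50 after the gene start) were matched by symbol to 31 of the 46 genes. The letters CACGTG, the E-box core, which reads the same on both strands, were in 8 of the 31 windows (25.8%), against 7.4% of 27305 windows of all genes and 8.9% of those of the protein-coding genes in the count table. The longer palindrome TCACGTGA, which contains CACGTG, was in 5 windows (16.1%), against 1.04% of all windows and 1.46% of the protein-coding ones. The 8 genes were LAMP1 with 6 copies, CTSA, GAA and MCOLN1 with 2 each, and ATP6V0D1, CD63, CTSD and NEU1 with 1 each. Below are the windows of LAMP1, which had the most copies, of CTSD, the lysosomal gene that the study names, and of CTSA and CTSZ, which are described further on and of which CTSZ had no copy. CACGTG is in capitals. LAMP1 is at chr13:113296989-113297288 on the plus strand, CTSA at chr20:45891085-45891384 on the plus strand, CTSD at chr11:1763878-1764177 on the minus strand and CTSZ at chr20:59007205-59007504 on the minus strand.
LAMP1: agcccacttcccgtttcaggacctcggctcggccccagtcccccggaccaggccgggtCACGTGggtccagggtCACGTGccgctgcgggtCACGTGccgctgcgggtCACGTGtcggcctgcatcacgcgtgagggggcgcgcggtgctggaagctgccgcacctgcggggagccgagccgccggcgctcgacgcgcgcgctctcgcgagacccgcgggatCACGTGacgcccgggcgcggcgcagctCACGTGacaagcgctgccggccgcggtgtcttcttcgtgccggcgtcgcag
CTSA: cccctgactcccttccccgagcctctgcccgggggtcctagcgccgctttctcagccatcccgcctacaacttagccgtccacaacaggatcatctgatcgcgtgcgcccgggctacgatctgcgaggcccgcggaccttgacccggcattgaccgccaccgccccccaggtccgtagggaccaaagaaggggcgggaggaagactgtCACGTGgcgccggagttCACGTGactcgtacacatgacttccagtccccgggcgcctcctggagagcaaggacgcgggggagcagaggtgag
CTSD: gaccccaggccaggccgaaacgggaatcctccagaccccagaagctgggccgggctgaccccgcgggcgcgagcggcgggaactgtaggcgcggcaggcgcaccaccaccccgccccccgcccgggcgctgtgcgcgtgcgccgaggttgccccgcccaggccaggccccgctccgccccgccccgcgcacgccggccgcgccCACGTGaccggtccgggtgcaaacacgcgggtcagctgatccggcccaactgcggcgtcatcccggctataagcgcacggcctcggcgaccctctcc
CTSZ: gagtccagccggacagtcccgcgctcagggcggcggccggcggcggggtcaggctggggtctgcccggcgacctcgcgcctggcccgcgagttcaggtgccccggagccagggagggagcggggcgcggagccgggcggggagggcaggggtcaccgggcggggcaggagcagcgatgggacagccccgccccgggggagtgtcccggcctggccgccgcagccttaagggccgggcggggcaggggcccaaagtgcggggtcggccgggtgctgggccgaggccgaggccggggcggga
These matches describe the letters of each window. Binding of TFEB or TFE3 was not measured.

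Libraries held 15440226 to 27110612 counts, of which the 46 genes took 0.237% to 0.356%. The B-cell markers CD79A, CD79B, MS4A1, PAX5 and CD22 were detected in all 12 libraries. Of macrophage markers, CD163 had 0 counts and CD14, CSF1R and LYZ were under 1 CPM (counts scaled to the normalized size of the library), while MRC1 was at 4.51 to 7.54 CPM in TMD8. TMD8 replicate 2 with OF and with isotype stood apart from the other 4 TMD8 libraries, with 7.16% and 6.50% of counts on ribosomal protein genes against 10.0% to 10.8%, and 3.73% and 3.99% on mitochondrial genes against 5.70% to 6.23%. Counts of TMD8 genes that passed, and the median and CTSD differences between R and OF, are also given without these 2 libraries. Changes of single genes against isotype in TMD8 are not.

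Levels were compared between genes as CPM per kb of transcript. With isotype in U2932, the highest mean levels were those of GRN at 73.5, which encodes progranulin, CTSH at 63.8 and CTSZ at 60.0, the cysteine proteases cathepsin H and cathepsin Z, LAMP1 at 54.6 and ATP6V0D1 at 51.3, a subunit of the membrane sector of the pump. With isotype in TMD8, GRN at 197 led, followed by CTSZ at 96.6, PSAP at 84.6, which encodes the precursor of the saposins that present sphingolipids to their hydrolases, CTSC at 59.4 (cathepsin C) and ATP6V0D1 at 54.2. GAA, the acid alpha-glucosidase that degrades glycogen, was the lowest of the 44 genes tested in U2932 at 0.777, and IDUA, an iduronidase of glycosaminoglycan breakdown, was the lowest in TMD8 at 0.704. CTSL (cathepsin L) had 0 counts in every library, where a count of 0 allows up to 3 counts or, depending on the library, 0.107 to 0.206 CPM. These limits hold only if the counting could assign reads to CTSL, which the count table does not show. LGMN, the asparaginyl protease legumain, had 0 to 2 counts per library. Neither gene could be tested, and the other 44 passed the filter on low counts in both lines.

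Under isotype, the lines were compared on the same genes. Of the 44 genes, 14 were higher in U2932 and 13 were lower at an adjusted p under 0.10 (edgeR's quasi-likelihood test, Benjamini-Hochberg over 16187 genes), which is 61.4%, near the 66.8% of all genes tested that passed (33.2% higher, 33.7% lower). SCARB2, the membrane receptor that carries glucocerebrosidase to the lysosome, had 6.71 CPM in both U2932 isotype libraries and 75.6 and 82.0 CPM in the TMD8 ones, a log2 fold change of −3.55 ± 0.16 (SE) for U2932 over TMD8 (adjusted p = 1.2e-08). Also lower in U2932 were CTSC by −2.46 ± 0.15, MAN2B1, the alpha-mannosidase of glycoprotein breakdown, by −1.85 ± 0.26, CTSB (cathepsin B) by −1.76 ± 0.14, and LIPA, the acid lipase of cholesteryl esters and triglycerides, by −1.65 ± 0.20 on the log2 scale. Higher in U2932 were ARSA, the sulfatase of sulfatide, by 1.62 ± 0.34, PPT1, a thioesterase that removes palmitate from proteins, by 1.13 ± 0.20, and ATP6V0A1, the pump's membrane subunit a1, by 1.00 ± 0.25. The TMD8 isotype libraries disagreed on ARSA and ATP6V0A1. Without TMD8 isotype replicate 1, ARSA had 1.17 and ATP6V0A1 0.62, and without replicate 2 they had 2.43 and 1.57. MAN2B1 had −2.21 and −1.36 in the same order, and all 3 still passed. By role, glycosidases and sulfatases had 7 of 13 higher and 3 lower in U2932, and proteases 1 of 9 higher and 4 lower. The proton pump had 3 of 6 subunits higher and 0 lower. CTSD, the aspartic protease cathepsin D, did not pass (−0.19 ± 0.17, adjusted p = 0.330), nor did TFE3 (0.07 ± 0.18, adjusted p = 0.746).

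**Figure D1:**
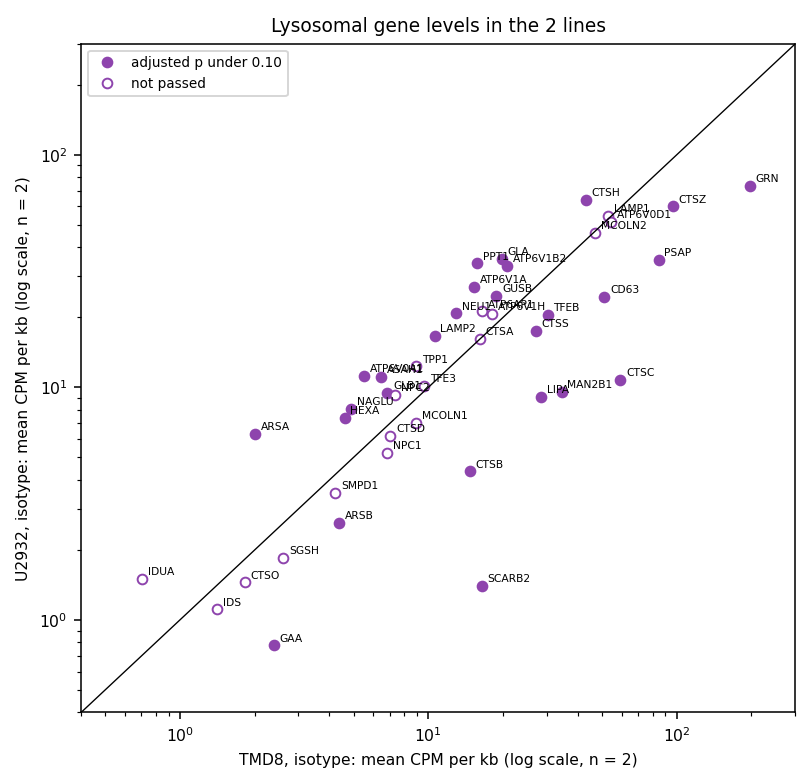
Mean CPM per kb of 44 lysosomal genes with isotype in TMD8 (horizontal) and U2932 (vertical), both on log scales, with the line of equal levels and filled points for an adjusted p under 0.10. SCARB2 (1.40 in U2932, 16.4 in TMD8) lies farthest below the line, and ARSA (6.33 in U2932, 2.00 in TMD8) lies above it.

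In U2932, more lysosomal genes were higher than lower after either antibody, most of them proteases, glycosidases and genes of lipid handling, while TFE3 was lower after both. Against isotype, R raised 20 of 44 genes and lowered 2, which is 50% of them, beside 34.2% of all 14635 genes tested (16.8% higher, 17.4% lower). OF raised 21 and lowered 1, also 50%, beside 36.4% of all genes (18.7% higher, 17.8% lower). The median log2 fold change of the 44 genes was 0.18 with R, against −0.02 over all genes, and 0.19 with OF, against 0.01. With R, the 23 genes at or above a GC content of 52.7% had a median of 0.16 (0.05 over all genes in that range). The 21 genes below it had 0.26 (−0.05). With OF the medians were 0.16 (0.14) and 0.22 (−0.07). With each library's trend on GC content removed, these medians were 0.11 (0) and 0.3 (−0.01) with R. With OF they were then 0.03 (0) and 0.25 (−0.01). With both antibodies 19 genes passed, 18 of them higher and 1 lower, in comparisons that share their isotype libraries. Changes were small, since 2 genes passed with R at 1.5-fold or more (10.2% of all genes did) and 4 passed with OF (11.1%). Libraries of a line with the same replicate number were taken as 1 culture, though the labels name no culture. On that pairing, R was above isotype for 31 of the 44 genes in both cultures (35.6% of all genes) and below for 4 (38.1%). For OF, 27 were above in both (37.0%) and 6 below (37.3%). When the 6 TMD8 libraries entered the same fit and shared 1 estimate of spread, 5 genes passed with R (7.46% of all genes) and 6 with OF (8.69%). Scaled by library size alone, which moved the median over all genes to −0.12 with R and −0.07 with OF, R raised 15 genes and lowered 4 (37.0% of all genes passed), and OF raised 16 and lowered 3 (37.3%). With the trend on GC content removed, R raised 23 and lowered 4 (40.9%), and OF raised 24 and lowered 4 (40.1%). More or fewer transcripts per cell and more or fewer cells that carry them cannot be told apart in these bulk samples.

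Of the 6 roles, proteases had the largest share of higher genes in U2932. With R, 7 of 9 were higher (16.8% of all genes), and with OF 6 of 9 (18.7%), with 0 lower in either case (17.4% and 17.8%). CTSZ (chr20:58995185-59007247) had 94.7 and 84.8 CPM with isotype, 140 and 142 with R, and 152 and 156 with OF. The 3 conditions did not overlap, and both OF libraries were the highest. The log2 fold change against isotype was 0.65 ± 0.091 (adjusted p = 5.9e-06) for R. For OF it was 0.79 ± 0.091 (adjusted p = 4.5e-07). CTSA (chr20:45890144-45898820), the serine carboxypeptidase that also protects beta-galactosidase and neuraminidase, had 36.7 and 33.0 CPM with isotype, 46.7 and 45.0 with R, and 52.6 and 53.2 with OF. Again the 3 conditions did not overlap, with changes of 0.39 ± 0.10 for R (adjusted p = 0.00453) and 0.61 ± 0.10 for OF (adjusted p = 6.3e-05). Of the exon bases of CTSA, 28.5% lie opposite exons of other genes, PLTP and NEURL2 among them, and the strand setting of the counting is not given in the sources used here, so its counts are uncertain. CTSB rose with R (0.31 ± 0.12, adjusted p = 0.0509) and had 0.26 ± 0.12 with OF (adjusted p = 0.102). CTSC, CTSH and TPP1, an aminopeptidase that trims tripeptides, rose with both, by 0.27 to 0.47. CTSO and CTSS, the cathepsins O and S, did not pass with either antibody, at −0.04 to 0.13.

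CTSD (chr11:1752752-1764573) had 13.8 and 12.4 CPM with isotype in U2932, 14.9 and 18.3 with R, and 19.7 and 16.7 with OF. All antibody-treated libraries were above both isotype libraries, with R replicate 1 close to isotype replicate 1. It rose by 0.48 ± 0.13 with OF (adjusted p = 0.00765) and by 0.35 ± 0.13 with R (adjusted p = 0.0547). The call with R was lost without R replicate 2 (0.20, adjusted p = 0.460) and without isotype replicate 2 (0.27, adjusted p = 0.207), and that with OF without OF replicate 1 (0.36, adjusted p = 0.158). Exons of other annotated genes cover 41.7% of the exon bases of CTSD on its own strand, and 15.8% lie opposite another gene's exons, so that its counts are uncertain as well.

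Glycosidases and sulfatases had 5 of 13 genes higher with R (16.8% of all genes) and 7 of 13 with OF (18.7%), with 0 lower (17.4% and 17.8%). MAN2B1 (chr19:12646511-12666742) had 34.6 and 26.2 CPM with isotype, 50.1 and 42.5 with R, and 48.1 and 49.5 with OF. Antibody-treated libraries were all above isotype and overlapped each other, with changes of 0.61 ± 0.12 for R (adjusted p = 4.0e-04) and 0.69 ± 0.12 for OF (adjusted p = 1.0e-04). A neighbouring transcript shares 21.2% of its exon bases on the same strand. GLA and GLB1, the alpha- and beta-galactosidases, GUSB, the beta-glucuronidase, and IDS, a sulfatase of glycosaminoglycans, rose with both antibodies, by 0.32 to 0.52. Other genes cover 17.4% of the exon bases of IDS on its strand, and lie opposite 13.3% of those of IDUA. ARSA and ARSB, which remove sulfate from sulfatide and from dermatan sulfate, passed with OF only (0.38 ± 0.13 and 0.35 ± 0.13), but no difference between R and OF passed for either. GAA had −0.37 ± 0.27 with R and −0.33 ± 0.27 with OF, and NAGLU, which acts on heparan sulfate, had −0.25 ± 0.13 with each. Neither passed. HEXA, IDUA, NEU1 and SGSH did not pass with either antibody.

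Genes of lipid handling had 5 of 7 higher with R (16.8% of all genes) and 4 of 7 with OF (18.7%). PSAP (chr10:71816298-71851375) had 106 and 97.1 CPM with isotype, 136 and 149 with R, and 159 and 148 with OF, with no overlap between isotype and antibody. The rise was 0.49 ± 0.092 for R (adjusted p = 2.3e-04), and OF gave 0.60 ± 0.092 (adjusted p = 2.0e-05). ASAH1, the acid ceramidase, rose by 0.58 ± 0.10 and 0.46 ± 0.10, and NPC2, the soluble cholesterol carrier of the lumen, by 0.57 ± 0.12 and 0.52 ± 0.12 with R and OF. PPT1, of whose exon bases 23.4% lie opposite CAP1, rose by 0.29 ± 0.088 and 0.22 ± 0.088. LIPA passed with R only (0.26 ± 0.11, adjusted p = 0.0732), and the call was lost without any 1 of 5 of the 6 U2932 libraries. NPC1, the membrane partner of NPC2, and SMPD1, the acid sphingomyelinase, did not pass, at −0.14 to 0.10.

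Membrane proteins and channels mostly did not pass. CD63, a tetraspanin of late endosomes and lysosomes, was the 1 of 6 that rose, by 0.42 ± 0.11 for R (adjusted p = 0.00388) and 0.34 ± 0.11 for OF (adjusted p = 0.0180). Over all genes, 16.8% were higher with R and 18.7% with OF. LAMP1, whose promoter had 6 copies of CACGTG, had −0.20 ± 0.092 for R (adjusted p = 0.120) and −0.11 ± 0.092 for OF (adjusted p = 0.381). LAMP2, the calcium channels MCOLN1 and MCOLN2, and SCARB2 ranged from −0.34 to 0.17 and did not pass. In the proton pump, ATP6V0A1 rose by 0.40 ± 0.11 with R and 0.46 ± 0.11 with OF, and ATP6V1A, the catalytic subunit that hydrolyses ATP, by 0.45 ± 0.095 and 0.46 ± 0.095. The other 4 pump genes, ATP6V0D1, ATP6V1B2, ATP6V1H and ATP6AP1, ranged from −0.03 to 0.16 and did not pass.

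Among the regulators, TFE3 was lower with both antibodies and TFEB with R. TFE3 (chrX:49028726-49043486) had 36.3 and 32.9 CPM with isotype in U2932, 23.8 and 23.4 with R, and 26.5 and 26.1 with OF. Each isotype library was above every antibody-treated one, and both R libraries were the lowest. It fell by 0.55 on the log2 scale with R (SE 0.11, adjusted p = 3.2e-04) and by 0.39 with OF (SE 0.11, adjusted p = 0.00662). TFEB (chr6:41683978-41736259) had 59.2 and 46.6 CPM with isotype, 44.9 and 41.8 with R, and 52.6 and 46.8 with OF. R lay below isotype and OF overlapped it. TFEB fell by 0.29 with R (SE 0.11, adjusted p = 0.0575) and had −0.09 ± 0.11 with OF (adjusted p = 0.610). The call with R was lost without isotype replicate 1 (−0.11, adjusted p = 0.448) and without R replicate 2 (−0.23, adjusted p = 0.292). GRN, whose product is cleaved to granulins in the lysosome, rose with OF (0.32 ± 0.10, adjusted p = 0.0166) and had 0.09 ± 0.10 with R (adjusted p = 0.530). Grouped by promoter, the 8 genes with CACGTG had a median of 0.16 with R, where 3 passed as higher and 0 as lower. The 22 tested genes whose window lacked it had a median of 0.30, where 13 passed as higher and 2 as lower. The shares over all genes were 16.8% (higher) and 17.4% (lower) for R, and 18.7% and 17.8% for OF. With OF, 3 of 8 were higher (median 0.15), and without the motif 14 of 22 were higher and 1 lower (median 0.34).

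**Figure D2:**
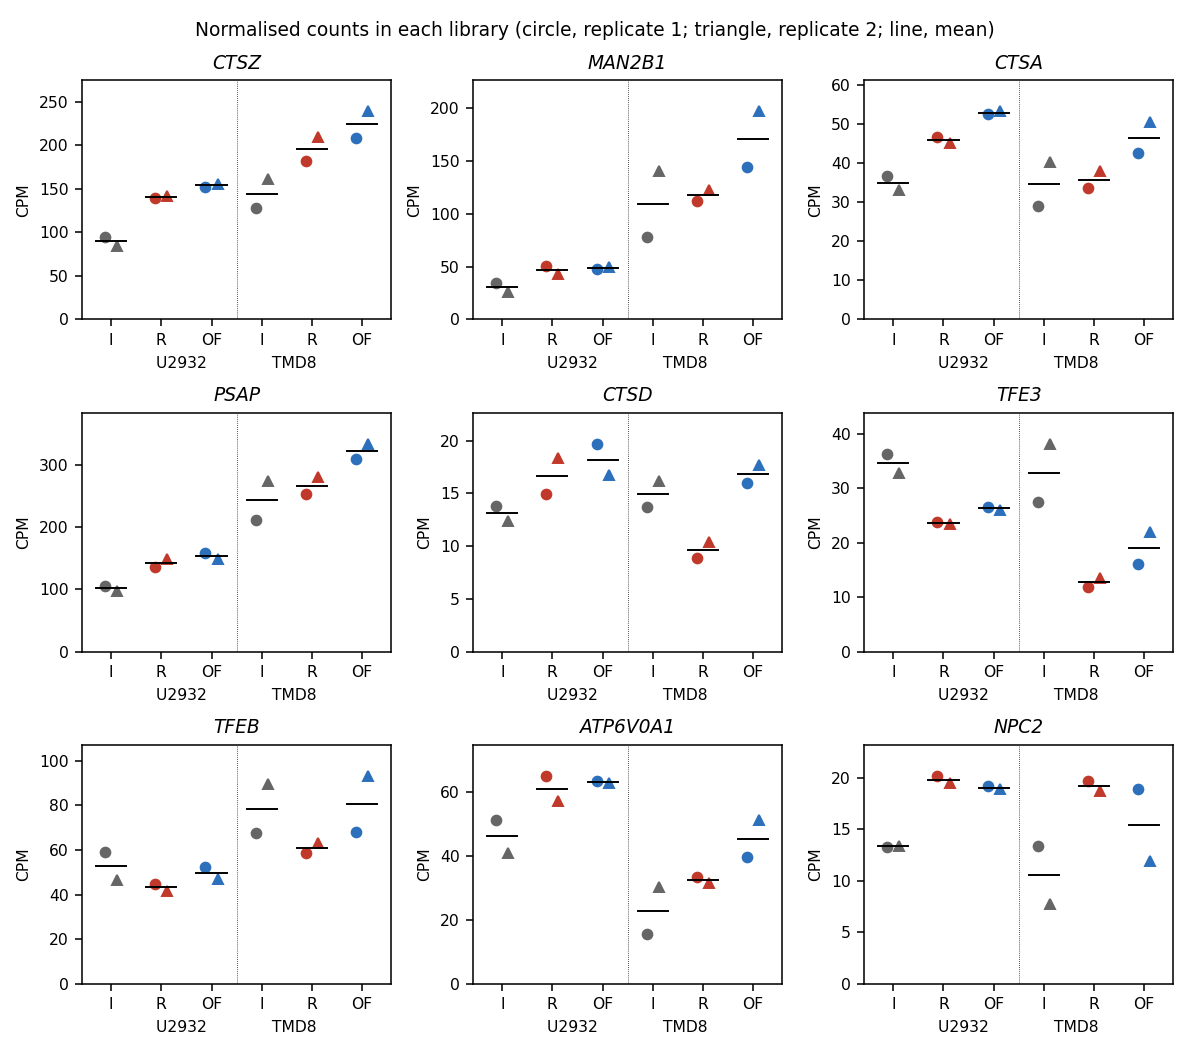
CPM of 9 lysosomal genes in each library, with isotype (I), R and OF in U2932 on the left and TMD8 on the right of each panel, replicate 1 as a circle, replicate 2 as a triangle and the mean as a line. TFE3 is lower in every antibody-treated library than in either isotype library of its line, and CTSZ is higher. CTSD with R lies above isotype in U2932 (14.9 and 18.3 CPM) and below it in TMD8 (8.85 and 10.4 CPM).

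R and OF were not told apart on these genes in U2932. At the adjusted p under 0.30 that the study names for this comparison, 0 of 44 genes passed (2 had an unadjusted p under 0.05 with edgeR, and DESeq2 also called 0), and 1 gene in all (0.00683%) passed with each tool. Differences ranged from −0.23 to 0.25 on the log2 scale. For CTSD the difference was −0.13, with a 95% interval of −0.41 to 0.14, and for CTSZ −0.13, with an interval of −0.32 to 0.05, both for R over OF.

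In TMD8, 0 of 44 genes passed against isotype with R and 0 with OF (7 and 3 had an unadjusted p under 0.05), where 0.647% and 0.815% of 14227 genes passed. The median SE of the 44 genes was 0.21, against 0.11 in U2932. Same-numbered replicates were again taken as 1 culture, which the labels do not state. With that culture as a block R raised 7 genes and lowered 4, which is 25.0% of the 44 beside 17.7% of all genes (8.99% higher, 8.73% lower). OF raised 7 and lowered 1, which is 18.2% beside 14.3% of all genes (7.45% higher, 6.87% lower). The 2 genes that passed with both antibodies were CTSZ and TFE3. DESeq2, without the block, called 1 gene with R, TFE3 (−1.36, adjusted p = 3.5e-04), and 2 with OF, CTSZ and ATP6V0A1. It called 6.14% of the 11744 genes to which it gave an adjusted p with R, and 4.72% of 12572 with OF. Without the 2 libraries that stood apart, a comparison added after the data were seen that leaves 1 isotype and 1 OF library, 15 genes passed with R and 10 with OF, beside 30.3% and 23.4% of all genes.

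In TMD8, TFE3 had the largest change of the 44 genes with R, but not with OF. It had 27.5 and 38.2 CPM with isotype, 11.9 and 13.5 with R, and 16.1 and 22.0 with OF. The conditions did not overlap, in the order isotype, OF and R. Without the block R gave a log2 fold change of −1.36 ± 0.23 (adjusted p = 0.101) and OF one of −0.78 ± 0.23 (adjusted p = 0.204). Under the block TFE3 fell by 1.35 after R (adjusted p = 0.00255), and after OF it fell by 0.78 (adjusted p = 0.0178). Within cultures 1 and 2 the differences were −1.20 and −1.50 with R, and −0.77 and −0.79 with OF. TFEB had 67.5 and 89.5 CPM with isotype, 58.5 and 63.3 with R, and 68.3 and 93.2 with OF. It did not pass with either (−0.36 ± 0.21 and 0.05 ± 0.21), with or without the block.

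Among the proteases of TMD8, CTSZ had 128 and 161 CPM with isotype, 182 and 210 with R, and 209 and 239 with OF. Isotype lay below both antibodies, and R and OF met at 210 and 209. Under the block it rose after R by 0.45 ± 0.13 (adjusted p = 0.0573), and the rise after OF was 0.65 ± 0.13 (adjusted p = 0.0218). CTSD had 13.7 and 16.2 CPM with isotype, 8.85 and 10.4 with R, and 16.0 and 17.7 with OF. Both R libraries were the lowest, and OF overlapped isotype. With R it had −0.63 ± 0.19 (adjusted p = 0.192), and it fell by 0.63 with the block (adjusted p = 0.0395). When the trend on GC content was also removed, the value with the block was −0.40 (adjusted p = 0.142). With OF it had 0.18 ± 0.18 (adjusted p = 0.728). CTSC and CTSH rose with R under the block (0.46 ± 0.15 and 0.49 ± 0.15), and CTSA (0.44 ± 0.13) and TPP1 (0.69 ± 0.18) rose with OF.

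Of the other roles in TMD8, MAN2B1 had 77.8 and 141 CPM with isotype, 112 and 123 with R, and 144 and 197 with OF, and rose with OF under the block (0.68 ± 0.17, adjusted p = 0.0485). The isotype libraries spanned those with R. PSAP had 212 and 274 CPM with isotype, 253 and 280 with R, and 309 and 334 with OF, and rose with OF under the block by 0.42 ± 0.14 (adjusted p = 0.0987). ATP6V0A1 had 15.5 and 30.1 CPM with isotype, 33.4 and 31.5 with R, and 39.5 and 51.1 with OF. It rose by 1.02 ± 0.21 with OF under the block (adjusted p = 0.0259), and the isotype libraries themselves differed by nearly as much. NPC2 (0.93 ± 0.20), ATP6V1A (0.54 ± 0.12), LAMP2 (0.43 ± 0.12) and ASAH1 (0.41 ± 0.14) rose with R under the block, while GAA fell by 0.84 (SE 0.22) and LAMP1 by 0.51 (SE 0.13). GC content was 37.72% to 44.29% in these risers, 64.12% in GAA and 55.17% in LAMP1. With R and no block, the 21 genes below 52.7% had a median of 0.24 (0.06 over all genes in that range). The 23 at or above it had −0.24 (−0.18). With the GC content trend removed, these medians were 0.19 (−0.01) and −0.09 (−0.02). With the block as well, R raised 7 genes and lowered 3 (16.5% of all genes passed). ARSA rose with OF under the block (0.95 ± 0.27). Its raw counts with isotype were 42 and 163, in libraries of 18377047 and 27110612 counts. In both cultures, 19 of 44 genes were above isotype with R (30.2% of all genes) and 16 below (32.8%), and 26 were above with OF (37.4%) and 6 below (38.5%).

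**Figure D3:**
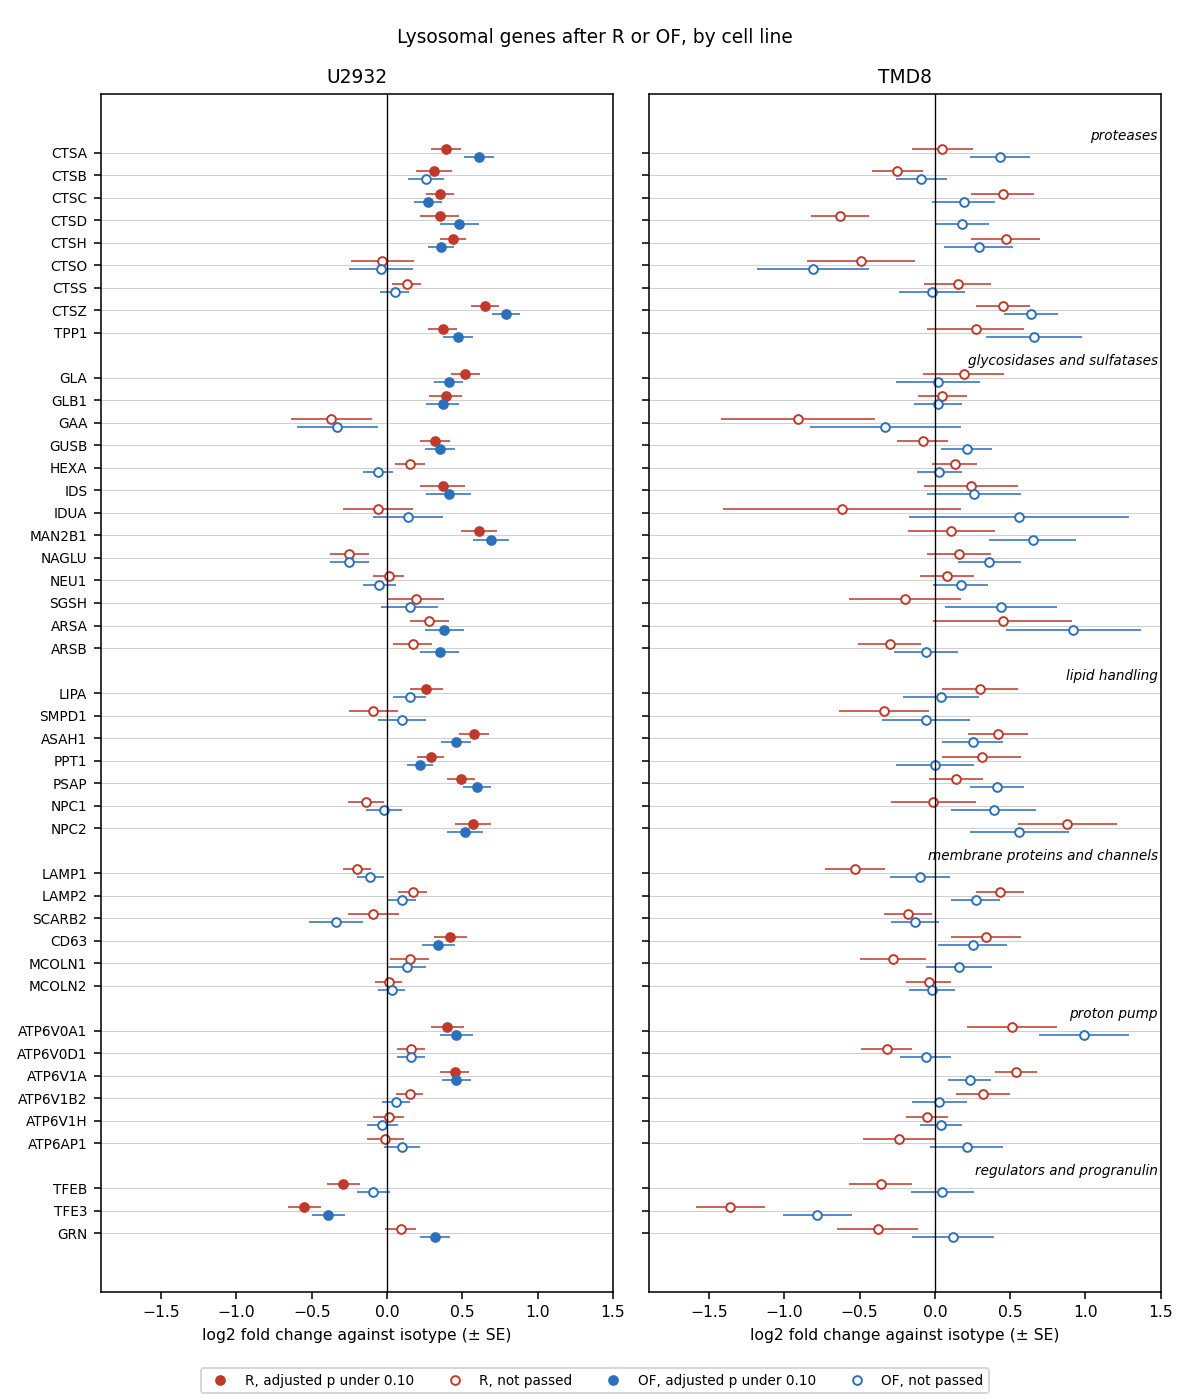
Log2 fold changes against isotype (± SE) of 44 lysosomal genes with R (red) and OF (blue) in U2932 (left) and TMD8 (right), by role, from edgeR without the replicate block, with filled points for an adjusted p under 0.10. In U2932 the filled points lie above 0 except those of TFE3 and of TFEB with R, and in TMD8 no point is filled and the error bars are wider.

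Between R and OF in TMD8, 0 of 44 genes passed (0% of all genes), with or without the block and with DESeq2, and 2 had an unadjusted p under 0.05 with edgeR without the block and 16 with it. CTSD was named by the study for this comparison on these same samples, so its value is a description. It had 8.85 and 10.4 CPM with R and 16.0 and 17.7 with OF, a log2 fold change of −0.81 ± 0.19 for R over OF with a 95% interval of −1.26 to −0.36 and an adjusted p of 0.733. The adjusted p was 0.269 with the block, and 0.0111 (−0.73) without the 2 libraries that stood apart, where 4% of all genes passed. Within cultures 1 and 2 the difference was −0.85 and −0.76. The GC content of CTSD was 63.97%, and with the trend on GC content removed from each library the value was −0.44 (adjusted p = 0.965).

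In TMD8, the difference between R and OF moved with GC content, both among the lysosomal genes and among all genes. Of the 44 genes, 29 were lower with R, with a median of −0.19 against 0.01 over all genes. This median was −0.11 without OF replicate 2, −0.12 without R replicate 1, −0.31 without OF replicate 1 and −0.10 without the 2 libraries that stood apart. Of the 23 genes at or above a GC content of 52.7%, the median of the 46 genes, 21 were lower with R (median −0.41). In the same range of GC content 79.1% of 5222 genes were lower (median −0.28). Of the 21 genes below it, 8 were lower (median 0.16), beside 31.1% of 8985 genes (median 0.15). With the trend removed, 17 of the 23 genes at or above it were lower (median −0.13), beside 52.3% of all genes in that range (median −0.02). Below it 11 of 21 were lower (median 0), beside 47.5% (median 0.02). The median GC content was 48.5% for the genes tested in TMD8 and 52.7% for the 46 genes. The part of GC content in the difference of any 1 gene was not tested beyond this correction.

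**Figure D4:**
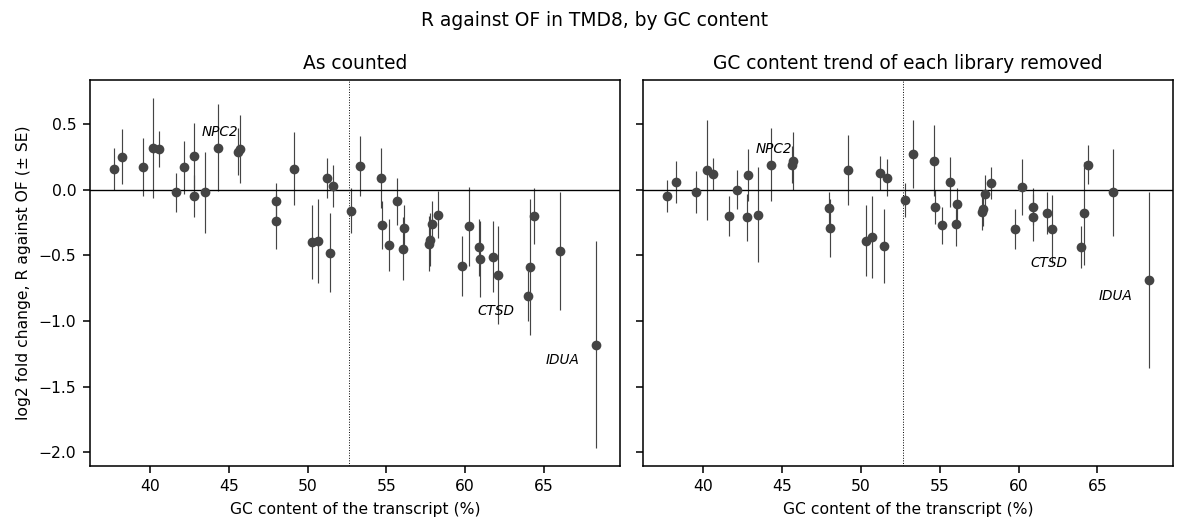
Log2 fold change of R over OF in TMD8 (± SE) for 44 lysosomal genes against the GC content of their transcript, as counted (left) and with each library's trend on GC content removed (right), with a dotted line at 52.7%. On the left 21 of the 23 genes to the right of the line lie below 0, and on the right 17 of 23 do.

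The response to R differed between the lines in 0 of 44 genes at an adjusted p under 0.10 (0.321% of 16187 genes passed), with 4 at an unadjusted p under 0.05, and the response to OF in 0 (0.105%), with 1. CTSD had the largest value, 0.99 ± 0.24 for the response in U2932 minus that in TMD8 with R (adjusted p = 0.159), since it was above isotype in U2932 and below it in TMD8. DESeq2 gave 0.98 (adjusted p = 0.0231) and called CTSD alone of the 44 genes, beside 4.63% of the 11793 genes to which it gave an adjusted p. With the block 4 genes passed for R, against 6.04% of all genes, namely CTSB (0.57 ± 0.16), CTSD (0.99 ± 0.21, adjusted p = 0.0289), ATP6V0D1 (0.49 ± 0.15) and TFE3 (0.81 ± 0.17, adjusted p = 0.0256), all with a response in U2932 above that in TMD8. For TFE3 this is a smaller fall in U2932. With the block and the GC content correction together, 2 passed (3.11% of all genes), TFE3 (0.57, adjusted p = 0.0748) and NAGLU (−0.71, adjusted p = 0.0621), and CTSD had 0.68 (adjusted p = 0.143). For OF, 0 passed with the block (2.23% of all genes).

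A further list of 77 lysosomal and autophagy genes, written for comparison with earlier results of these data known, had 69 genes tested in each line. In U2932, R raised 23 and lowered 5, which is 40.6% beside 34.2% of all genes (16.8% higher, 17.4% lower). OF raised 26 and lowered 8, which is 49.3% beside 36.4% (18.7% higher, 17.8% lower). The counts by role cover 1 to 14 genes each, stand beside these same shares over all genes, and are a description. Of 10 further pump subunits, 7 were higher and 1 lower with R, and 6 and 1 with OF. ATP6V0E1, a small subunit of the membrane sector, led with 1.10 ± 0.097 and 0.97 ± 0.097, and ATP6V1E1, a stalk subunit, had 0.71 ± 0.094 and 0.66 ± 0.094 with R and OF. Of 14 further hydrolases and their cofactors, 4 were higher with R and 6 with OF, 0 lower. GM2A, the activator protein for ganglioside breakdown, rose by 0.78 ± 0.095 and 0.84 ± 0.095, and DNASE2, the acid nuclease, by 0.74 ± 0.12 and 0.85 ± 0.12. PLA2G15, a lysosomal phospholipase, rose with OF by 0.62 ± 0.13. Autophagy genes had 5 of 13 higher and 2 lower with each antibody, among them GABARAPL1, which takes part in autophagosome maturation, at 0.63 ± 0.12 with R. Genes of delivery and maturation had 2 of 10 higher with R and 3 with OF, and those of nutrient signalling on the lysosome had 3 of 12 higher and 2 lower with R, and 2 higher and 3 lower with OF. Other membrane proteins had 1 of 9 higher with R, and 3 higher and 2 lower with OF. The 1 protease inhibitor tested was higher with both. In TMD8, 0 of these 69 passed with either antibody, beside 0.647% and 0.815% of all genes (8 with R and 9 with OF had an unadjusted p under 0.05).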

How the data were processed

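RNA-seq read counts of 12 libraries were used. The authors prepared RNA with Trizol and libraries with the NEBNext Ultra II kit, and deposited raw counts per Ensembl gene, without normalization or a filter. The submitters' processing notes name Trim Galore 0.6.0, cutadapt, FastQC, STAR 2.7.0e, DESeq2 1.26.0 and GRCh38. The annotation release and the strand setting are not given in the sources used here. All columns were matched to libraries by their labels, and 0 were left out.

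Names, positions, exon overlaps, length and GC content (of the longest coding transcript) came from GENCODE 29. The 46 genes and the further list were chosen with earlier results of these data known. The tests used edgeR 4.0.16 in R 4.3.3. The 6 libraries of a line were normalized by TMM, filtered with filterByExpr (at least 10 counts) and fitted by quasi-likelihood with 1 mean per antibody. Benjamini-Hochberg adjustment ran over all genes tested. A gene passed at an adjusted p under 0.10, and between R and OF in U2932 under 0.30. "Higher", "rose" and "fell" refer to genes that passed. All 12 libraries were fitted for differences between lines and for interactions. CPM are TMM-normalized over the 12 libraries, and log2 differences within a culture used a prior count of 2. The limit for 0 counts was 3 counts per library and covers counting error only.

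Values in every library are given for CTSD, TFEB, TFE3 and genes that passed with at least 1.5-fold between antibodies or against isotype within a line. Of the further list, the 5 largest changes that passed per line and antibody are named. Values in every library for SCARB2 and ATP6V0A1 and counts for ARSA were added after they were seen. Same-numbered replicates of a line were taken to share a culture. The labels give a replicate number and name no culture. Deviations of same-numbered replicates from their condition's mean correlated at −0.04 to 0.10 in U2932. In TMD8 they correlated at 0.58 between OF and isotype, whose replicate 2 libraries are those that stood apart. Between R and OF, and between R and isotype, they correlated at 0.18, so the block in comparisons with R has little backing there.

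Alternatives were DESeq2 1.42.0, its size factors in edgeR, library size only, no filter, 1 fit over all 12 libraries, a comparison of lines on the 4 isotype libraries alone, the replicate block, a GC content correction (lowess, span 0.3), both together, a 1.5-fold limit, and fits without each library. Fits were run on simulated counts that held no culture effect, no GC content trend and no outlying library. Such a run checks the working of the code and not its accuracy on these data. No permutation of 2 against 2 libraries can reach a p of 0.05.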

Additional observations from a re-analysis of the deposited data

How the results depend on the processing

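Single-gene values were followed for 78 pairs of gene and comparison, those called without an alternative and CTSD in every comparison. None of these reversed its direction while called. Of their values under alternatives, 905 kept their side of the limit, 101 lost a call and 9, all of CTSD, gained one. Calls gained by other genes, in fits that kept every library, are in the counts that follow. Shares over all genes under the same setting stand in brackets, for DESeq2 over those to which it gave an adjusted p. In U2932, the 22 genes with R (34.2%) became 2 at 1.5-fold or more (10.2%) and 5 with all 12 libraries in 1 fit (7.46%). The 22 with OF (36.4%) became 4 (11.1%) and 6 (8.69%). Without 1 library, they ranged from 18 to 24 with R and from 14 to 23 with OF, the lowest without OF replicate 2. In TMD8, the 0 genes with R (0.647%) became 1 with DESeq2 (6.14%), 3 without a filter (4.05%) and 2 with GC content correction (3.31%). They became 11 with the replicate block (17.7%), 10 with block and GC content correction (16.5%), and 8 with all 12 libraries (12.3%). The 0 genes with OF (0.815%) became 2 (4.72%), 3 (3.37%), 1 (3.12%), 8 (14.3%), 8 (15.7%) and 3 (9.93%) in the same order. Leaving out 1 library gave medians of the 44 genes of −0.05 to 0.12 with R and 0.09 to 0.21 with OF. The lowest with R came without isotype replicate 1, and the highest with each antibody without isotype replicate 2. Over all genes they were −0.03 to 0.01 with each antibody. Without the 2 libraries that stood apart, chosen after the data were seen, 15 genes passed with R, 10 with OF and 1 between R and OF. The isotype and OF libraries left are then single and assumed to vary like the others. For the difference between lines in the response to R, the 0 genes (0.321%) became 1 with DESeq2 (4.63%) and 1 without a filter (0.843%). They became 4 with the block (6.04%) and 2 with the block and GC content correction (3.11%). The median of the 44 genes was 0.07 without the 2 libraries, against −0.02 over all genes. Without 1 library it was 0.07 to 0.34, the highest without TMD8 isotype replicate 1, against −0.02 to 0.06 over all genes. For OF the 0 genes (0.105%) became 1 with the block and GC content correction (3%). The median was 0.03 without the 2 libraries, against 0 over all genes. Without 1 library it was −0.07 to 0.12, the lowest without TMD8 isotype replicate 2, against −0.03 to 0.05 over all genes. The count of 27 genes between lines moved by less than 1.5 times. The block changed the count of calls by over 1.5 times only in TMD8 and in the difference in the response to R. Library size alone moved the median over all TMD8 genes to −0.16 with R. The causes were not tested. With 2 libraries per condition, spread between cultures is poorly known, and changes near the median SE of 0.21 in TMD8 were not detectable.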
